A study of Mus musculus with 9 samples.

Results

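The genes described are 32 genes of cholesterol and fatty acid synthesis that are targets or regulators of the sterol regulatory element-binding proteins (SREBPs), taken from a fixed list of names and measured in primary mouse microglia. They comprise 20 genes of the sterol branch, 7 genes of the fatty acid branch, and 5 genes for the SREBPs and the proteins that control them, of 54119 genes for which transcript counts could be summed. All 32 were among the 16273 genes that passed the filter on low counts. Microglia, the immune cells of the brain, were grown out of mixed glial cultures from late embryonic C57BL/6J mouse brains and given control siRNA, Chd8 siRNA, or Tsc2 siRNA, with 3 RNA-seq libraries of total RNA for each siRNA and the replicate numbers 1, 2, and 3 in each group. Control siRNA was the reference for both knockdowns, every group had passed through the same transfection reagent, and no group was left without siRNA. Chd8 encodes a chromatin remodeler and Tsc2 encodes a subunit of the complex that restrains mTORC1 kinase. Each replicate was described in the methods as a culture from a separate mouse brain. Whether libraries that carry the same number came from the same brain is not given in the sources used here, and p-values measure the spread between these libraries. The methods describe RNA isolation after siRNA treatment and the results describe lipopolysaccharide stimulation, which the sample labels do not name, so that the activation state of the cells is uncertain.

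SREBPs are transcription factors made as membrane proteins of the endoplasmic reticulum. When sterols are scarce, SCAP escorts them to the Golgi, where the site-1 and site-2 proteases release the part that enters the nucleus, and when sterols are plentiful INSIG proteins hold SCAP back. SREBP2, from Srebf2, mainly drives sterol synthesis, and SREBP1, from Srebf1, mainly drives fatty acid synthesis. Liver X receptors (LXRs) sense oxysterols and switch on sterol export. In the brain, astrocytes and oligodendrocytes make much of the cholesterol and long-chain lipid, whereas microglia take up lipid from debris and myelin.

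RefSeq promoter windows, from 250 bases before to 50 bases after an annotated start, were found for 26 of the 32 genes by symbol, in 34 windows of build GRCm38.p6. The letters TCACNCCA, the core of the sterol regulatory element to which SREBPs bind, were searched on both strands and were present in 4.36% of all 32851 windows and in those of Hmgcs1, Msmo1, and Srebf2. CCAAT, the box bound by NF-Y, was in 37.4% of all windows and in 22 of the 34 (64.7%), and CACGTG, the E-box, was in 7.15% of all windows and in 6 of the 34 (17.6%). A match is a description of the letters and not evidence of binding, and no binding was measured. The windows of Hmgcs1 (chr13:119690101-119690400, plus strand), Insig1 (chr5:28071162-28071461, plus strand), Srebf2 (chr15:82147019-82147318, plus strand), and Fasn (chr11:120824498-120824797, minus strand) are shown. They stand for an early sterol enzyme, a regulator, an SREBP, and a fatty acid enzyme whose levels differed between replicate numbers, as given further on. They run 5′ to 3′ with all matches to these motifs in capitals. The capitals mark 1 sterol regulatory element core and 4 CCAAT boxes in Hmgcs1, 1 CCAAT box and 1 E-box in Insig1, 1 sterol regulatory element core and 1 CCAAT box in Srebf2, and 3 CCAAT boxes in Fasn, of which 2 overlap each other.
Hmgcs1: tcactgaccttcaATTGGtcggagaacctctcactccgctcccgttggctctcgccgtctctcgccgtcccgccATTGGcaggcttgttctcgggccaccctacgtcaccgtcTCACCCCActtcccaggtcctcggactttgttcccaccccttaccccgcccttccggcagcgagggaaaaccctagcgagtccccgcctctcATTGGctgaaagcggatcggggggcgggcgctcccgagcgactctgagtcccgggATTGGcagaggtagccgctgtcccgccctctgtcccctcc
Insig1: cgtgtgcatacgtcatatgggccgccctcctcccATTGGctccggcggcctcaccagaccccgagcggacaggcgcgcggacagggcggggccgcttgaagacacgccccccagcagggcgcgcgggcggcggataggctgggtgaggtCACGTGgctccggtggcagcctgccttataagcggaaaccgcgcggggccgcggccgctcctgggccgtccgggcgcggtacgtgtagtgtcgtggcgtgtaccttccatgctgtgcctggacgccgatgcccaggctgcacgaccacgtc
Srebf2: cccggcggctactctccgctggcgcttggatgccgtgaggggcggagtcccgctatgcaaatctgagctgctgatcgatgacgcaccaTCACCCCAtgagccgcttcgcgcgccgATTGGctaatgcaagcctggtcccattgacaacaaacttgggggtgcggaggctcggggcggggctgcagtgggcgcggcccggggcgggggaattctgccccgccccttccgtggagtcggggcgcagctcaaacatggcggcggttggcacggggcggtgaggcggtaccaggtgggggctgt
Fasn: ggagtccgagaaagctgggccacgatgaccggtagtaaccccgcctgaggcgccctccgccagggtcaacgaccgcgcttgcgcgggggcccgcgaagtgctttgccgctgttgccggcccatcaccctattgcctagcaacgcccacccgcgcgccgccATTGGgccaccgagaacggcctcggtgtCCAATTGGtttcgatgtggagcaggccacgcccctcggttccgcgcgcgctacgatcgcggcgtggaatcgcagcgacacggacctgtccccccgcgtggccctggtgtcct

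Total counts ranged from 16913448 to 33213801 per library, so that 3 counts corresponded to 0.0903 to 0.177 CPM, counts scaled to a common library size, a floor that covers counting error only. Values are CPM after TMM scaling unless a level per length is named. Chd8 was at 118, 97.3, and 93.5 CPM in control siRNA libraries 1 to 3 and at 86.7, 44.5, and 38.2 in Chd8 siRNA libraries. Tsc2 was at 40.8, 39.9, and 38.9 CPM in control siRNA and at 24.6, 30.6, and 36.4 in Tsc2 siRNA. The libraries of the targeting siRNA lay below all control libraries for both targets, by 0.86 (SE 0.28) and 0.38 (SE 0.15) on the log2 scale. Neither passed edgeR's test at a false discovery rate (FDR) of 0.05, and with the replicate number as a block only Chd8 was called, at FDR 0.00777 against 0.219 for Tsc2. Of 10 microglia markers, Csf1r was at 405 to 571 CPM and C1qa at 252 to 432, while Tmem119 did not exceed 1.11. Astrocyte markers were also present, with a sum over 8 genes of 12.7 to 14.7 CPM in the libraries numbered 1, 26.1 to 29.6 in those numbered 2, and 57 to 109 in those numbered 3, the highest in control siRNA.

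Levels per length, that is counts divided by transcript length and scaled to a common total, were low for most of the sterol enzymes. In control siRNA the median over the 20 sterol genes was 0.48, against 1.18 over all genes tested, 0.985 over the 7 fatty acid genes, and 4.95 over the 5 SREBP and regulator genes. By mean, the highest member was Acly, which makes cytosolic acetyl-CoA from citrate, at 10 ± 1.32 (SD, n = 3). It was followed by Srebf2 at 8.2 ± 3.02 (SD, n = 3) and Insig1 at 6.23 ± 2.89 (SD, n = 3), which did not differ from each other beyond their spread. This order did not hold in control siRNA library 2, where Srebf2 was at 9.07, Insig1 at 8.56, and Acly at 8.54. The highest sterol enzyme was Ggps1, which makes geranylgeranyl diphosphate for protein prenylation, at 4.64 ± 1.54 (SD, n = 3). Hmgcs1, which makes HMG-CoA, was at 2.55 ± 0.571 (SD, n = 3), and Msmo1, a sterol C4-methyl oxidase, at 2.2 ± 0.702 (SD, n = 3). The late enzymes Tm7sf2 and Hsd17b7 and the decarboxylase Mvd were all below 0.18, and Elovl6, the elongase of palmitate, was the lowest member at 0.0965 ± 0.0654 (SD, n = 3).

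**Figure D1:**
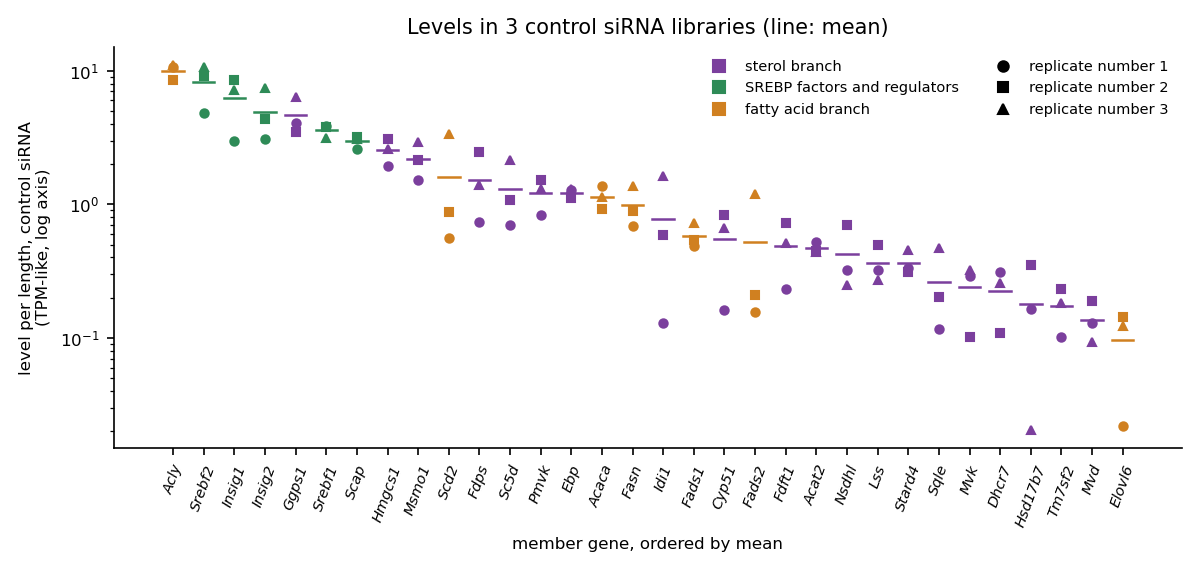
Level per length (TPM-like, log axis) of each member in the 3 control siRNA libraries, ordered by mean; points are libraries, marker shapes the replicate numbers, lines the means, and colours the branch. Acly, the SREBP and regulator genes, and Ggps1 sit at the top and most sterol enzymes are below 1.18, the median of all genes tested.

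The annotated type of transcript to which the counts were assigned differed among the members. For Lss, which cyclizes squalene epoxide to lanosterol, 74.7% of the counts fell on transcripts annotated as retained introns and 23.3% on protein-coding transcripts. The retained-intron share was 45.9% for Sqle, the squalene epoxidase, 44.7% for Tm7sf2, 42.4% for Stard4, 25.9% for Ebp, and 24.3% for Msmo1. It was 1.21% for Insig1 and 2.8% for Hmgcs1. For Srebf1, 85.8% of the counts were assigned to one transcript, Srebf1-201. Some members overlap other annotated genes on the opposite strand, among them Fdft1 with Ctsb, Cyp51 with Akap9, Ggps1 with Arid4b, and Srebf1 with Rai1, and Tm7sf2 overlaps Vps51 on its own strand. Scd2 and Scd1 are close paralogs, and the division of reads between such genes is uncertain.

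The first question was whether lowering Chd8 or Tsc2 changed the pathway. In neither comparison was any of the 32 genes called by edgeR's quasi-likelihood test at FDR 0.05 and a fold change of 1.5, against 0% of all 16273 genes, and none had an unadjusted p under 0.05, against 3.82% of all genes for Chd8 siRNA and 2.61% for Tsc2 siRNA. DESeq2's Wald test, which called 0.0553% and 0.0369% of all genes, and limma-voom, which called 0%, also called 0 of the 32. Adding the replicate number as a block called 87 genes for Chd8 siRNA (0.535%) and 63 for Tsc2 siRNA (0.387%), none of them a member, with unadjusted p under 0.05 for 2 members (12.8% of all genes) and 1 member (10.7%). The medians of the log2 fold changes were 0.14 for the sterol branch, −0.39 for the fatty acid branch, and 0.02 for the regulators with Chd8 siRNA, beside −0.02 for all genes. With Tsc2 siRNA they were 0.12, −0.35, and 0.12, beside −0.02. Leaving out single libraries turned the direction of the sterol medians and of 1 fatty acid median. Without control siRNA library 1 the sterol median was −0.02 with Chd8 siRNA and −0.07 with Tsc2 siRNA. It was −0.01 in the Tsc2 comparison without Tsc2 siRNA library 3. Without control siRNA library 3 the fatty acid median for Tsc2 siRNA was 0.21. The fatty acid median for Chd8 siRNA ranged from −1.01 without Chd8 siRNA library 3 to −0.08 without control siRNA library 3. The standard errors of single members had medians of 0.49 and 0.51 in the sterol and fatty acid branches, and over all members they ranged from 0.11 for Acly to 1.05.

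**Figure D2:**
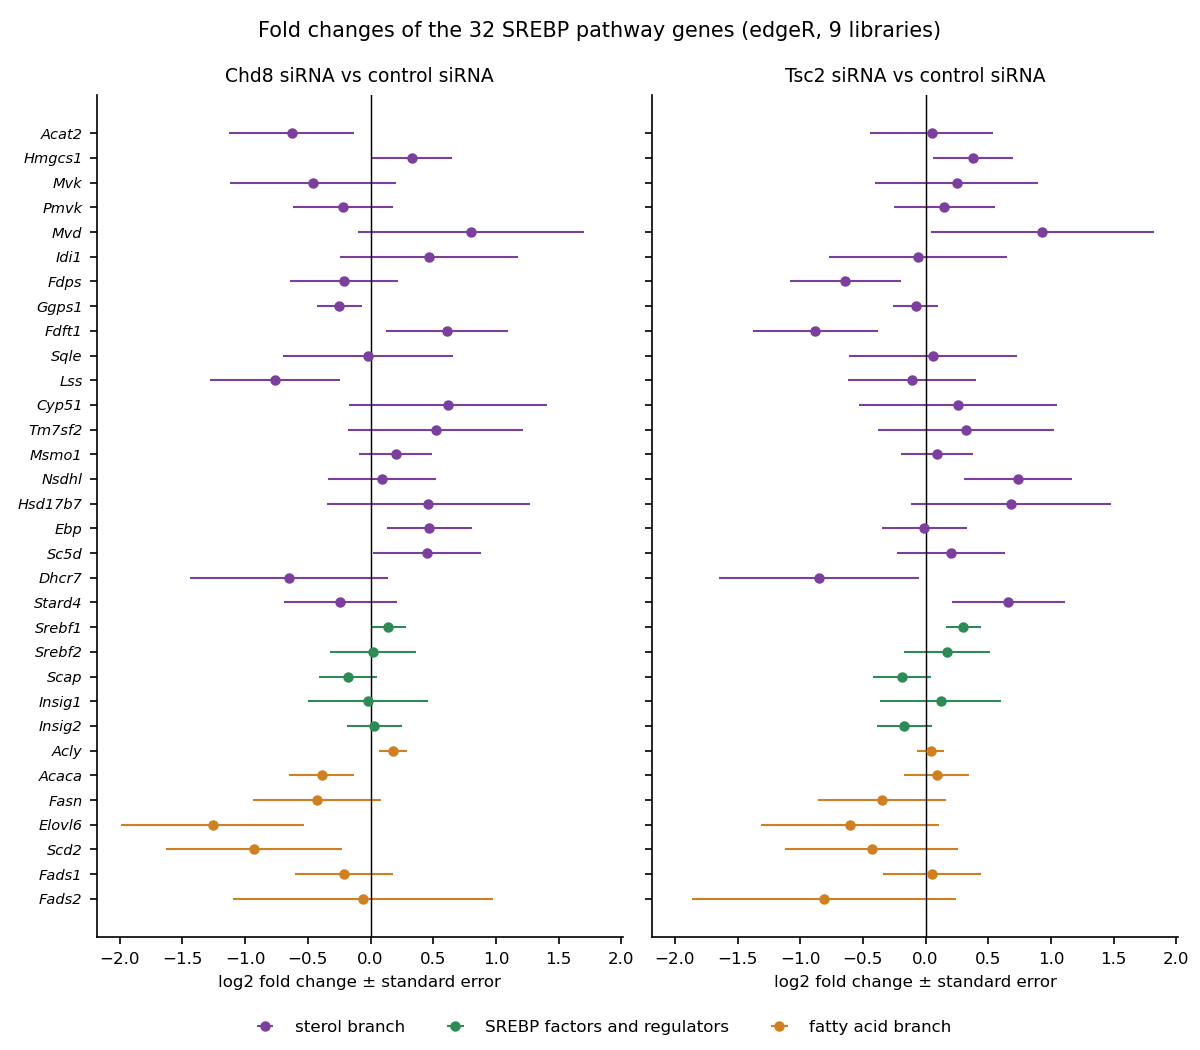
Log2 fold change (x axis, edgeR fit of 9 libraries without the replicate block) with its standard error for each of the 32 members in Chd8 siRNA (left) and Tsc2 siRNA (right) against control siRNA, which both comparisons share; colours are the branches. The values lie between −1.26 and 0.93, and Acly and Srebf1 have among the shortest bars.

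Srebf1, the source of SREBP1, was the member of the regulators whose groups did not overlap. It was at 23.5, 21.4, and 21.8 CPM in control siRNA, at 25.4, 26.6, and 21.7 in Chd8 siRNA, and at 28.1, 28.9, and 25.4 in Tsc2 siRNA. All 3 Tsc2 siRNA libraries lay above all 3 control libraries, which 3.87% of all genes did in this direction. The log2 fold change was 0.30 (SE 0.14, FDR 1 by edgeR), or 0.30 (SE 0.12, FDR 0.365) with the block, and p was 0.1 in a two-sided exact permutation test, the smallest that 3 against 3 libraries allow.

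Srebf2, the source of SREBP2, was at 39.9, 72.5, and 61.6 CPM in control siRNA, at 31.3, 76.4, and 68.6 in Chd8 siRNA, and at 46.5, 74.7, and 74.4 in Tsc2 siRNA. Insig1, a retention protein that is itself an SREBP target, was at 15.8, 50.4, and 32.1 CPM in control siRNA, at 18.2, 44.1, and 34.7 in Chd8 siRNA, and at 18.3, 53.6, and 35 in Tsc2 siRNA. In both genes library 1 was the lowest of every group, and the groups overlapped almost fully. With the block, the log2 fold changes of Insig1 were 0.04 (SE 0.11) for Chd8 siRNA and 0.14 (SE 0.11) for Tsc2 siRNA, and those of Srebf2 were −0.03 (SE 0.11) and 0.18 (SE 0.11).

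Scap, the escort of the SREBPs, was at 15.7, 26.6, and 23.5 CPM in control siRNA, at 15.7, 19.2, and 23.3 in Chd8 siRNA, and at 15.6, 21.8, and 20.3 in Tsc2 siRNA. Insig2, a close relative of Insig1, was at 10.4, 10.8, and 15.3 CPM in control siRNA, at 11.8, 13.1, and 12.3 in Chd8 siRNA, and at 8.78, 13.1, and 10.4 in Tsc2 siRNA. The groups of both genes overlapped, and their log2 fold changes lay between −0.19 and 0.03 in the 2 comparisons with control siRNA.

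**Figure D3:**
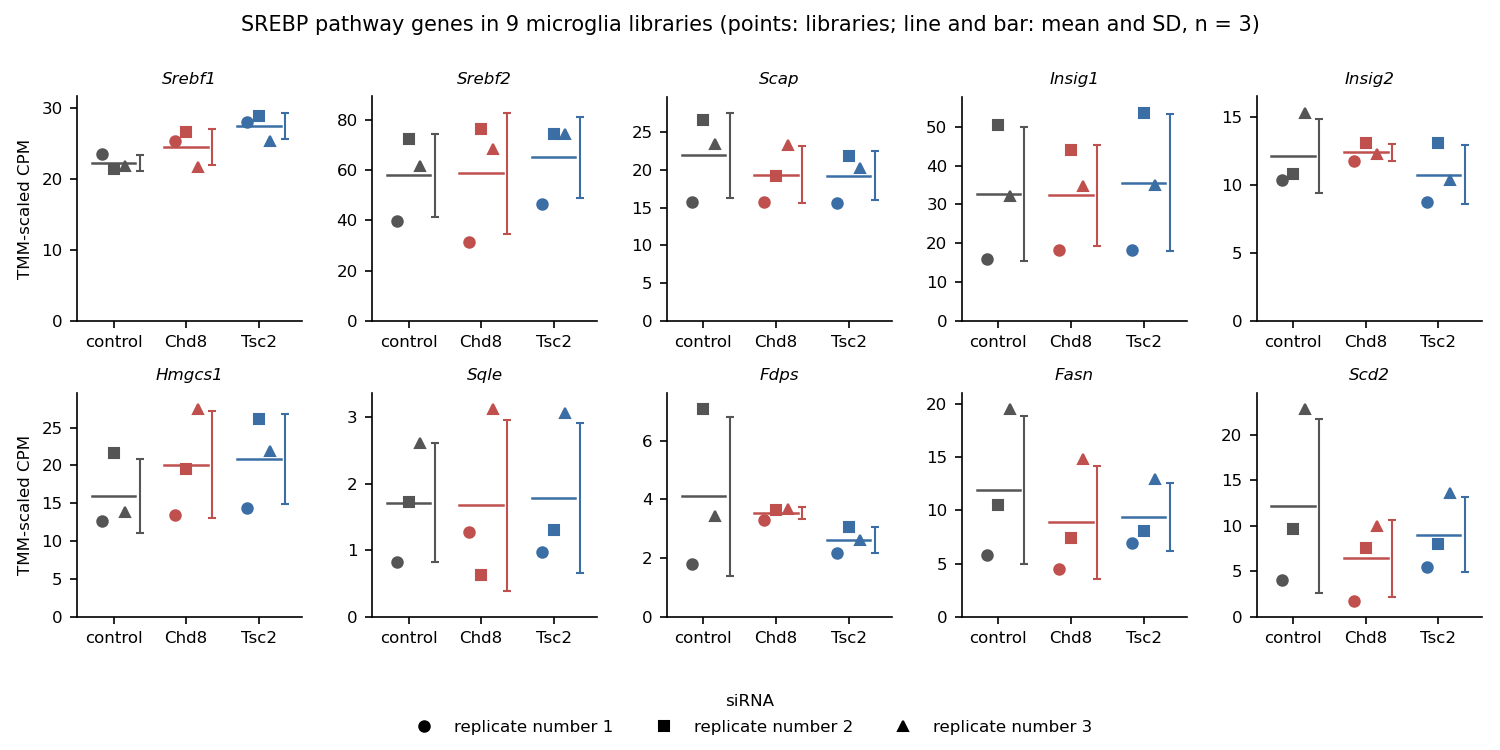
TMM-scaled CPM (y axis) of 10 members in each library by siRNA (x axis); marker shapes are replicate numbers, lines and bars are the mean and SD of 3 libraries. Circles, the libraries numbered 1, are the lowest of every group for Srebf2, Insig1, Hmgcs1, Fasn, and Scd2, whereas the 3 groups overlap in these genes.

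In the sterol branch, 11 of 20 members had a log2 fold change above 0 with Chd8 siRNA and 13 of 20 with Tsc2 siRNA, beside 47.8% and 47.6% of all genes. Hmgcs1 was at 12.6, 21.6, and 13.8 CPM in control siRNA, at 13.4, 19.5, and 27.4 in Chd8 siRNA, and at 14.4, 26.1, and 21.9 in Tsc2 siRNA. It was higher than control at all 3 replicate numbers with Tsc2 siRNA and at 2 of 3 with Chd8 siRNA, with log2 fold changes of 0.38 (SE 0.32) and 0.33 (SE 0.32) that did not pass the test. Higher at all 3 replicate numbers with Tsc2 siRNA were also Mvd, Nsdhl, Stard4, Srebf1, Srebf2, and Insig1, that is 7 of the 32 members (21.9%) beside 15.5% of all genes, and lower at all 3 were 2 members, Ggps1 and Scap, beside 16.3%. For Chd8 siRNA, 6 members were higher at all 3 numbers (Idi1, Fdft1, Msmo1, Ebp, Sc5d, and Acly, 18.8% beside 17.7%) and 8 were lower (Acat2, Mvk, Ggps1, Dhcr7, Scap, Acaca, Fasn, and Scd2, 25% beside 18.3%).

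Ebp, the sterol isomerase that moves the double bond of the B ring, was the sterol gene whose Chd8 siRNA libraries did not overlap control. It was at 3.16, 4.31, and 4.11 CPM in control siRNA and at 4.45, 7.2, and 4.44 in Chd8 siRNA, a log2 fold change of 0.47 (SE 0.34). Every Chd8 siRNA library was higher, as in 4.17% of all genes, and the difference was −0.02 when protein-coding transcripts alone were summed.

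Sqle, a rate-limiting step of the branch after squalene, was at 0.829, 1.72, and 2.61 CPM in control siRNA, at 1.27, 0.637, and 3.12 in Chd8 siRNA, and at 0.981, 1.3, and 3.07 in Tsc2 siRNA. Fdps, the farnesyl diphosphate synthase, was at 1.81, 7.07, and 3.43 CPM in control siRNA, at 3.31, 3.63, and 3.66 in Chd8 siRNA, and at 2.17, 3.05, and 2.63 in Tsc2 siRNA. The control libraries of Fdps spanned both knockdown groups. The other sterol members had log2 fold changes between −0.76 (Lss) and 0.80 (Mvd) with Chd8 siRNA and between −0.88 (Fdft1) and 0.93 (Mvd) with Tsc2 siRNA. Mvd had an SE of 0.90 and 0.89, with levels of 0.0822 to 1.85 CPM.

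In the fatty acid branch, 1 of 7 members was above control with Chd8 siRNA and 3 of 7 with Tsc2 siRNA. Acly was at 75.5, 70.2, and 72.1 CPM in control siRNA, at 81.6, 81.7, and 82.8 in Chd8 siRNA, and at 81.8, 72.5, and 69 in Tsc2 siRNA. The Chd8 siRNA libraries lay above all control libraries by a log2 fold change of 0.18 (SE 0.11, FDR 1 by edgeR), with the smallest SE of the branch.

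Scd2, a stearoyl-CoA desaturase that is abundant in brain, was at 4.11, 9.66, and 22.8 CPM in control siRNA, at 1.71, 7.58, and 9.98 in Chd8 siRNA, and at 5.46, 8.06, and 13.6 in Tsc2 siRNA. At each replicate number the Chd8 siRNA library was the lower, while the groups overlapped. The log2 fold change for Chd8 siRNA was −0.93 (SE 0.70, FDR 1 by edgeR), and −0.91 (SE 0.26, FDR 0.121) with the replicate block. DESeq2's Wald test with the block, which called 0.817% of all genes, called it at FDR 0.0247, and edgeR's blocked fit called it at FDR 0.041, with 0.604% of all genes called, when Tsc2 siRNA library 1 was left out. Without the block and control siRNA library 3 it was −0.10, and without the 3 libraries numbered 3 the blocked log2 fold change was −0.72 (FDR 0.531). In these libraries the sum of the astrocyte markers was 109 CPM in control siRNA, 57 in Chd8 siRNA, and 57.4 in Tsc2 siRNA, and that of 4 fibroblast markers was 49, 16.2, and 27. The part of other cells in the Scd2 values was not tested, and in RNA of a whole culture fewer cells of a type and less RNA per cell cannot be told apart.

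Fasn, the fatty acid synthase, was at 5.8, 10.5, and 19.5 CPM in control siRNA, at 4.48, 7.39, and 14.8 in Chd8 siRNA, and at 6.99, 8.11, and 13 in Tsc2 siRNA. It was lower at all 3 replicate numbers with Chd8 siRNA, by 0.43 on the log2 scale with an SE of 0.51, or of 0.20 and an FDR of 0.376 with the block. Acaca, which makes malonyl-CoA, was at 7.83, 10.5, and 11.6 CPM in control siRNA and at 6.16, 7.01, and 9.74 in Chd8 siRNA, also with overlapping groups. Elovl6 had the lowest log2 fold change of all members with Chd8 siRNA, −1.26 (SE 0.73), at 0.247 to 1.33 CPM over the 9 libraries.

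The 2 knockdowns were also compared with each other, without control siRNA. No member was called without the block or with it (0.221% of all genes), and Fdft1, the squalene synthase, was the member with an unadjusted p under 0.05, beside 3.1% of all genes. Fdft1 was at 2.98, 5.16, and 5.42 CPM in the Chd8 siRNA libraries and at 1.83, 0.651, and 2.28 in the Tsc2 siRNA libraries, which did not overlap. The log2 fold change of Tsc2 siRNA against Chd8 siRNA was −1.49 (SE 0.50, FDR 1 by edgeR) and −1.44 (SE 0.43, FDR 0.181) with the block. Control siRNA, at 1.7, 4.24, and 2.96 CPM, overlapped both. Fdps was also lower in every Tsc2 siRNA library (4.02% of all genes), and Stard4, a carrier of cholesterol between membranes, was higher in every one (4.42%), at 2.05, 3.1, and 1.9 CPM against 1.2, 1.47, and 1.11 with Chd8 siRNA.

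Other genes of the pathway gave the same picture between siRNAs. Of 7 further SREBP processing and sterol genes, 12 further fatty acid and glycerolipid genes, and 9 LXR and sterol efflux genes tested, 0 were called for either knockdown by edgeR with or without the block. Pnpla3 and Thrsp were too low to be tested. Groups that did not overlap were found for Mbtps2, the site-2 protease, and Gpam, which starts glycerolipid synthesis, both lower with Chd8 siRNA as were 4.92% of all genes, and for Npc1, a lysosomal sterol exporter, and Ch25h, the cholesterol 25-hydroxylase, both lower with Tsc2 siRNA as were 4.23%. Ch25h was at 654, 552, and 619 CPM in control siRNA and at 541, 371, and 536 in Tsc2 siRNA, a log2 fold change of −0.36 (SE 0.09, FDR 0.0865 by edgeR with the block).

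The libraries differed more between replicate numbers than between siRNAs for 21 of the 32 members (65.6%), beside 67.7% of all genes, judged by the SD of the 3 means of log2 CPM. Contrasts between replicate numbers, in the fit with siRNA and number as terms, were added after the data were seen. Against number 1, 8 members were higher in number 2 (25%, beside 6.86% of all genes) and 10 in number 3 (31.2%, beside 8.12%), and 0 of the 32 were lower in either, beside 5.81% and 5.3%. Of these, Hmgcs1, Idi1, Cyp51, Sc5d, Srebf2, Insig1, Scd2, and Fads2 rose in both, and Sqle and Fasn in number 3. The calls of Idi1, Cyp51, Sc5d, Srebf2, and Insig1 held in all 7 alternatives tried, Sqle lost its call when the libraries of any siRNA were left out, and Fasn, Scd2, and Fads2 held theirs between numbers 3 and 1 in all 7. Hmgcs1 lost its call in both contrasts without the Tsc2 siRNA libraries, and between numbers 3 and 1 also without the Chd8 siRNA libraries and with protein-coding transcripts, where 4 of 7 alternatives kept it. Between numbers 2 and 1, Scd2 lost its call without the Chd8 siRNA libraries, and Fads2 without the Chd8 or without the Tsc2 siRNA libraries and with protein-coding transcripts, so that 4 of 7 kept it. What else differed between the numbers is not given in the sources used here, and the numbers differed in 12.7% and 13.4% of all genes.

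**Figure D4:**
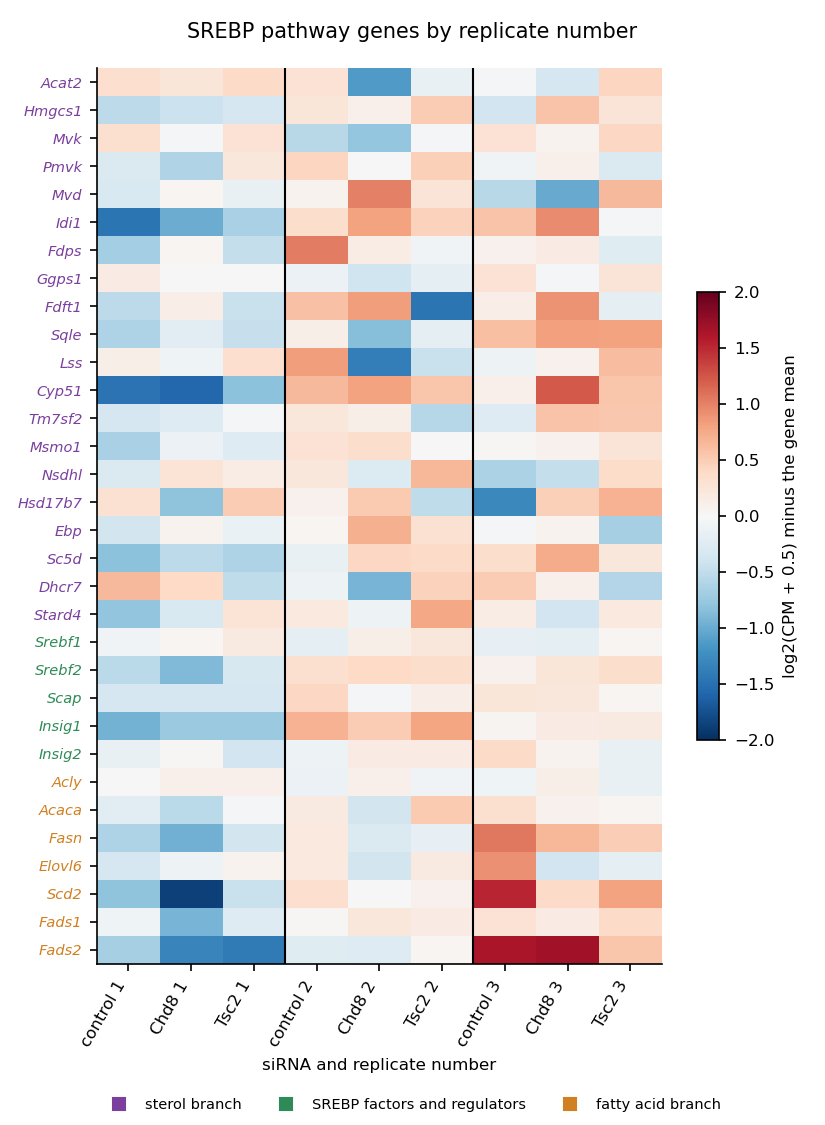
Each cell is the log2(CPM + 0.5) of a member (rows, names coloured by branch) in a library (columns, ordered by replicate number), minus the mean of that gene over 9 libraries, on a colour scale from −2 to 2. Idi1, Cyp51, Sc5d, Srebf2, and Insig1 are below their means in the 3 columns numbered 1, and Fasn, Scd2, and Fads2 are highest in a column numbered 3.

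In the sterol branch the differences were widest for Cyp51 and Idi1. Cyp51, the lanosterol demethylase, was at 1.28, 1.17, and 2.3 CPM in the libraries numbered 1 of control, Chd8, and Tsc2 siRNA, at 7.26, 8.15, and 6.76 in those numbered 2, and at 4.8, 11.1, and 6.81 in those numbered 3. Idi1, the isopentenyl diphosphate isomerase, was at 0.753, 1.24, and 1.71 CPM in number 1, at 3.94, 5.54, and 4.26 in number 2, and at 4.63, 6.16, and 2.92 in number 3. In both genes all 3 libraries of number 1 lay below all 6 others. The log2 differences of number 2 from number 1 were 2.24 (SE 0.32, FDR 0.000109 by edgeR) for Cyp51 and 1.89 (SE 0.35, FDR 0.00116 by edgeR) for Idi1.

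Sc5d, a late sterol desaturase, was at 3.54 to 4.48 CPM in number 1, 5.97 to 8.98 in number 2, and 7.84 to 11.4 in number 3. Hmgcs1 was at 12.6 to 14.4 CPM in number 1, 19.5 to 26.1 in number 2, and 13.8 to 27.4 in number 3, where control siRNA overlapped number 1. Insig1, at 15.8 to 18.3, 44.1 to 53.6, and 32.1 to 35 CPM, had the lowest FDR of the members, 2.20e-07 by edgeR, and was 2.83-fold higher in number 2 than in number 1. For Srebf2 this difference was 0.94 (SE 0.11, FDR 2.55e-05 by edgeR). Srebf1 and Acly were among the 11 members whose siRNA means were spread as widely as, or more widely than, the means of the numbers. In the sterol branch, 4 of 20 members were called higher in number 2 and 5 of 20 in number 3, beside 6.86% and 8.12% of all genes. The other sterol genes, such as Mvk, Lss, Dhcr7, and Ggps1, were not called. Markers of other cells also differed between numbers 2 and 1. Of 8 astrocyte markers 4 were higher in number 2 (Aqp4, Aldh1l1, Slc1a3, and Sox9), with a sum of 12.7 to 14.7 CPM in number 1 and 26.1 to 29.6 in number 2, as were both fibroblast markers tested, Col1a1 and Col1a2. Of 9 microglia markers tested, Itgam was 1.89-fold lower and Trem2 1.79-fold higher in number 2.

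The LXR targets Abca1 and Abcg1, which export sterol, and Mylip, an LXR-induced ubiquitin ligase, went the other way from the called members. Mylip was at 94.4, 86.7, and 87.5 CPM in number 1, at 57, 44, and 70.9 in number 2, and at 60.6, 45.1, and 69.2 in number 3. Abca1 was at 541, 476, and 487 CPM in number 1, at 171, 144, and 150 in number 2, and at 160, 151, and 173 in number 3. Of the 9 LXR and sterol efflux genes these 3 were lower in numbers 2 and 3 than in number 1 and 0 were higher, and Apoe, Soat1, and Nr1h2 were not called.

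**Figure D5:**
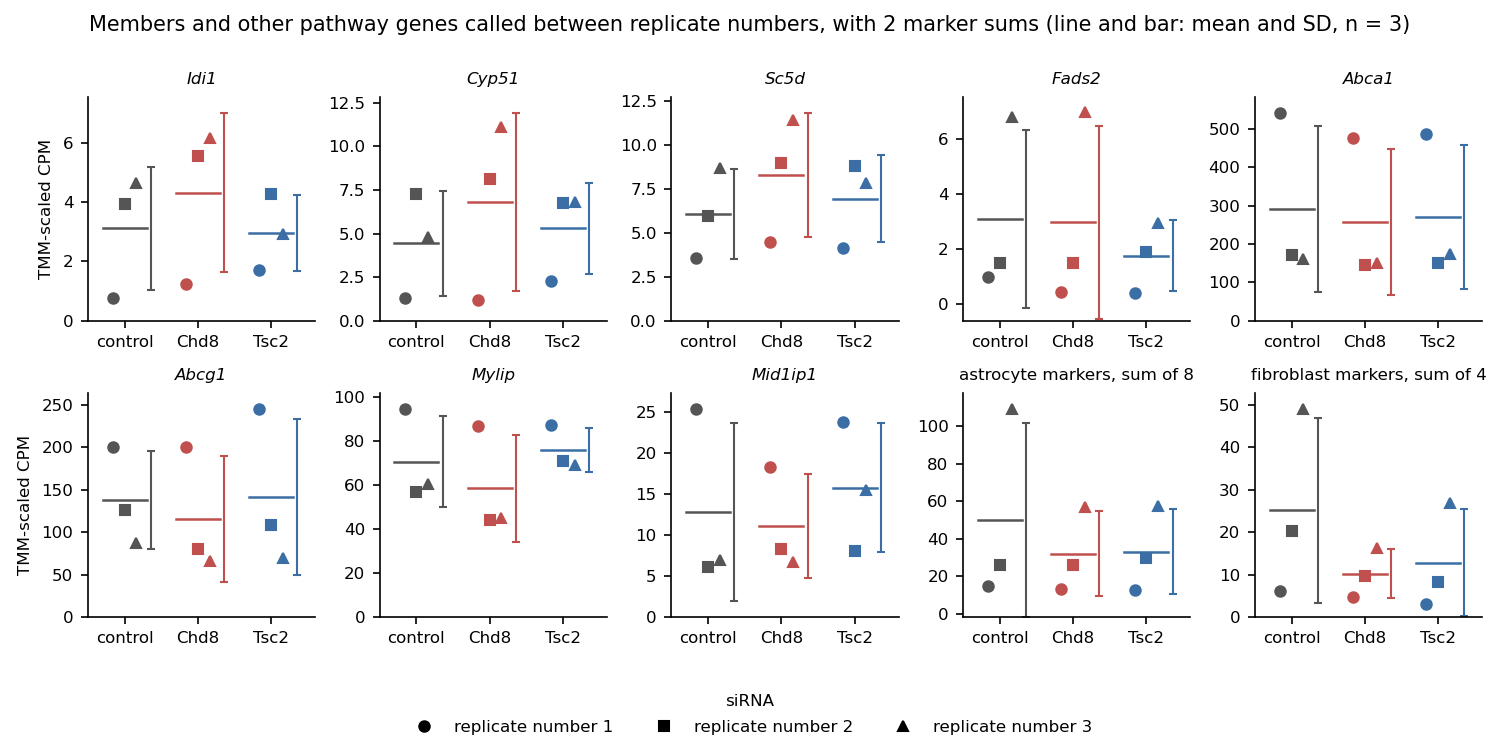
TMM-scaled CPM (y axis) by siRNA (x axis) for 4 members, 4 other pathway genes, and the sums of 8 astrocyte and 4 fibroblast markers; marker shapes are replicate numbers, lines and bars are the mean and SD of 3 libraries. Circles (number 1) are lowest for the members and highest for Abca1, Abcg1, Mylip, and Mid1ip1, and triangles (number 3) are highest for Fads2 and both marker sums.

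In the fatty acid branch, 3 of 7 members, Fads2, Scd2, and Fasn, were called higher in number 3 than in number 1, beside 8.12% of all genes. Acly, Acaca, Elovl6, and Fads1 were not called. Fads2, the delta-6 desaturase of polyunsaturated fatty acids, was at 0.979, 0.435, and 0.384 CPM in number 1, at 1.48, 1.47, and 1.9 in number 2, and at 6.81, 6.98, and 2.95 in number 3. The log2 differences of number 3 from number 1 were 3.21 (SE 0.43, FDR 5.79e-05 by edgeR) for Fads2, 2.06 (SE 0.27, FDR 3.99e-05 by edgeR) for Scd2, and 1.45 (SE 0.20, FDR 6.79e-05 by edgeR) for Fasn. Fasn and Fads2 were also higher in number 3 than in number 2, as were 2.48% of all genes, and 0 members were lower, beside 1.39%. Neither call held without the control or without the Chd8 siRNA libraries, nor that of Fads2 with protein-coding transcripts. In that contrast 0 of 20 sterol genes were called. Of 8 astrocyte markers, 7 were called between numbers 3 and 1 and 5 between numbers 3 and 2, and Aqp4, a water channel of astrocytes, was at 0 counts in the 3 libraries of number 1 and at 46.3, 7.15, and 18.6 CPM in those of number 3. Of the fibroblast markers Col1a1 was called in both contrasts, and Dcn and Lum were at or under 0.497 CPM in every library. Col1a2 was not called between numbers 3 and 1, at a log2 difference of 0.82 (SE 0.32, FDR 0.0912 by edgeR). It was at 0.981 to 3.39 CPM in number 1, 4.11 to 7.26 in number 2, and 2.67 to 4.8 in number 3. The astrocyte sum was 57 to 109 CPM in number 3. The sterol members called against number 1 differed between numbers 3 and 2 by 1.27 (SE 0.45) for Sqle, 0.23 (SE 0.21) for Sc5d, −0.01 (SE 0.33) for Idi1, −0.02 (SE 0.29) for Cyp51, and −0.12 (SE 0.18) for Hmgcs1 on the log2 scale. The regulators Srebf2 and Insig1 differed by −0.13 (SE 0.11) and −0.54 (SE 0.11, FDR 0.00814 by edgeR, under the fold threshold). The part of these markers in the differences between numbers was not tested. The sum of 10 microglia markers was 2320 to 2440 CPM in number 1, 2010 to 2120 in number 2, and 1710 to 2150 in number 3.

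The genes outside the list whose deviations from the siRNA means were most like those of the mean sterol gene, taken as the 10 highest by Pearson's r over 9 libraries that share their replicate numbers, had r of 0.96 to 0.99 and included Il1rap, Evi2, Pigw, Emc6, Scfd2, Arsb, Epc1, Hnmt, and Ezh2. Il1rap, the accessory chain of the interleukin-1 receptor, was at 7.5, 18.4, and 14.1 CPM in control siRNA, at 8, 12, and 18.5 in Chd8 siRNA, and at 6.31, 9.97, and 13 in Tsc2 siRNA. It was lowest in library 1 of each group, as the mean sterol gene was, a likeness that follows from its choice by r. Of the 32 members, 15 (46.9%) were lowest in library 1 of each group, beside 14.4% of all genes.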

How the data were processed

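RNA-seq was available for 9 libraries, grouped by the siRNA in the sample labels. The authors quantified reads with salmon 0.14.1 on mm10, used tximport for import, and deposited the estimated counts of each transcript without normalization; the annotation release is not given in the sources used here. Counts of 139852 of 140948 transcripts were summed to genes with GENCODE release 21 (GRCm38) and rounded; the other 1096 held 0.27% of counts. The sample labels name a stranded kit, and the setting used in counting was not given.

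Genes were filtered with filterByExpr (minimum count 10), scaled by TMM, and tested with edgeR 4.0.16 (quasi-likelihood, 9 libraries, siRNA as the factor, Benjamini-Hochberg adjustment, FDR 0.05, fold change 1.5) in R 4.3.3. Standard errors were calculated back from the F statistic. For single members an exact two-sided permutation test of log2(CPM + 0.5) was added. Alternatives were DESeq2 1.42.0, limma 3.58.1, other filters and size factors, transcripts summed, libraries left out, and the replicate block. Pairing comes from the replicate numbers in the labels: deviations from the group means correlated across genes at r of 0.243 to 0.521 in the 9 pairs with the same number and −0.381 to 0.0363 in the 18 others.

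The members and lists were chosen with earlier results of these data known. Per-library values are given for 10 set members, for members called with or without the block, and for those whose groups did not overlap; other values, such as those of Acaca, Cyp51, Idi1, Sc5d, Fads2, Mylip, and Abca1, were chosen after they were seen. Some genes of the lists are not reported here by name.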

Additional observations from a re-analysis of the deposited data

How the results depend on the processing

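The count of members called stayed at 0 for Tsc2 siRNA against control and against Chd8 siRNA under all alternatives run. For Chd8 siRNA against control it was 1 (Scd2) with DESeq2's Wald test and the replicate block, and 0 to 1 when single libraries were left out, the 1 arising in the blocked fit without Tsc2 siRNA library 1. With the replicate block in edgeR no call of a member changed. Leaving out single libraries moved the median log2 fold change of the sterol branch between −0.05 and 0.44 for Chd8 siRNA (0.44 without control siRNA library 2), and that of the fatty acid branch between −1.01 and −0.08 for Chd8 siRNA (−1.01 without Chd8 siRNA library 3) and between −0.68 and 0.21 for Tsc2 siRNA (0.21 without control siRNA library 3), with no test of a median. The fold change of Scd2 for Chd8 siRNA ranged from −1.41 (without Chd8 siRNA library 3) to −0.10 (without control siRNA library 3). The log2 fold change of Ebp was −0.02 with protein-coding transcripts; of its counts, 25.9% were on retained-intron transcripts.

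Between replicate numbers 2 and 1, 2 fatty acid members were called, and 1 with protein-coding transcripts and 0 without Chd8 siRNA libraries. Between numbers 3 and 1, 5 sterol members were called, and 3 without Chd8 or without Tsc2 siRNA libraries. Between numbers 3 and 2, 2 fatty acid members were called, 1 with protein-coding transcripts, and 0 without control or without Chd8 siRNA libraries, and 1 regulator, Insig1, was called without Chd8 siRNA libraries. In all 7 alternatives of these contrasts Idi1, Cyp51, Sc5d, Srebf2, and Insig1 stayed called against number 1 in both. Members under about 1 CPM rest on few counts, and their standard errors limit what could be seen.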
